A study of Rattus norvegicus with 6 samples.

Results

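Expression of 10 genes of the hepatic acute phase response was compared over 6 diets: Orm1, A2m, Crp, Hp, Fgb, Lbp, Lcn2, Apcs, Stat3 and Socs3. They were taken as the probe sets whose platform annotation gives exactly 1 gene symbol, that symbol being 1 of the 10. Each symbol had 1 such probe set, so these are 10 of the 14506 genes named on the arrays, and 10 of 10 passed the filter on low signal. The animals were adult male Wistar rats of 300 to 350 g at the start, 30 in all. They received 1 of 6 diets for 33 to 37 days after 10 days on the normal protein diet, and all livers were taken in the fed state, 2 h after a test meal that held 87.6 kJ. The high protein groups were HP-HS-HF (high sucrose and high fat), HP-HS (high sucrose, low fat) and HP (low fat). The normal protein groups were NP-HS-HF, NP-HS and NP, with the same 3 backgrounds. Liver RNA of 5 rats per diet was pooled and hybridised to 1 whole-transcript array, so no diet had a replicate pool and the number of arrays limits the precision.

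When tissue is injured or infected, macrophages release interleukin-6, interleukin-1 and tumour necrosis factor. Interleukin-6 acts on hepatocytes through the gp130 receptor chain and JAK kinases, which activate the transcription factor STAT3, and hepatocytes then secrete acute phase proteins into the plasma. SOCS3, itself made in response to STAT3, binds the receptor and the kinases and ends the signal. In the rat, A2m is a major acute phase gene with low expression in healthy adults, Orm1 responds to glucocorticoids as well as to cytokines, and Crp has a high plasma level without inflammation. Apcs is a main acute phase protein in the mouse and responds little in the rat.

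The 6 arrays were alike, with pairwise Pearson correlations between 0.9949 and 0.9964 and array medians that spanned 0.033 log2 units. Differences were fitted with limma to 20450 probe sets, with terms for protein level and for background, and p-values were adjusted by Benjamini-Hochberg over these 20450. The protein effect is thus the mean of 3 paired differences, and its error includes how the difference varied between backgrounds. The spread between single rats cannot be estimated, since a pool hides it, and it enters the error only through differences between pools. Hepatocyte markers were at high signal on each array, for example albumin (Alb) at 13.78 to 13.85 log2. In bulk liver RNA, fewer cells of a type and less RNA per cell cannot be told apart.

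With high protein, 0 of the 10 genes passed the test at an adjusted p under 0.05, whereas 0.044 percent of all probe sets did. At an unadjusted p under 0.05 there were 3 genes, Orm1, Socs3 and Apcs, beside 8.71 percent of all probe sets. In these 3 genes the arrays of the protein levels did not overlap. Orm1 and Socs3 had each HP array above each NP array, which held for 7.35 percent of the probe sets tested, and Apcs had each HP array below each NP array, which held for 7.58 percent. Over the 10 genes, 5 fitted protein differences were above 0 and 5 below. Their median was 0.01 log2, against -0.00 over all probe sets tested.

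**Figure D1:**
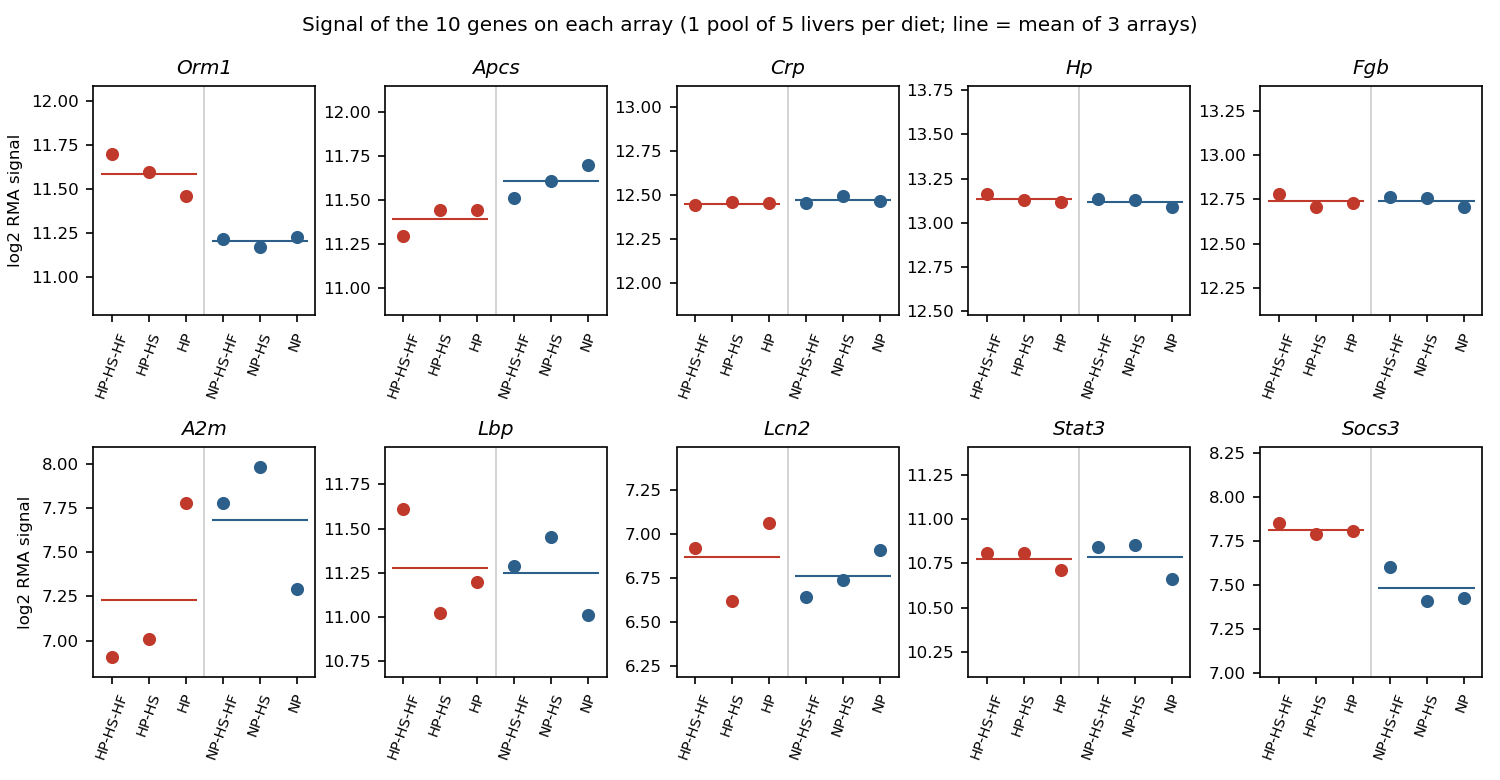
Log2 RMA signal (vertical axis, the same span in each panel) of the 10 genes on each of the 6 arrays (horizontal axis), with 3 high protein arrays in red left of 3 normal protein arrays in blue. Each point is 1 pool of 5 livers and each line the mean of 3 arrays. Orm1, Apcs and Socs3 have arrays of the protein levels that do not overlap, and Crp, Hp and Fgb lie almost on 1 line.

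Among the secreted proteins, Orm1 encodes alpha-1-acid glycoprotein, a plasma carrier of basic and neutral drugs (probe set 10869476). Its log2 signal was 11.70 in HP-HS-HF, 11.60 in HP-HS and 11.46 in HP, against 11.22 in NP-HS-HF, 11.17 in NP-HS and 11.23 in NP. The 3 high protein arrays were the highest of the 6, and the lowest of them lay 0.23 above the highest normal protein array. The fitted difference was 0.38 ± 0.076 SE on the log2 scale (1.30-fold, 95 percent interval 0.20 to 0.56, limma adjusted p = 0.219). By background the difference was 0.48 with high sucrose and high fat, 0.43 with high sucrose and 0.23 on low fat. The high protein arrays averaged 11.59 ± 0.118 and the normal protein arrays 11.21 ± 0.030 (SD over 3 backgrounds), so Orm1 varied more between backgrounds at high protein. That difference in spread was not tested.

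Apcs encodes serum amyloid P component, a pentraxin that binds amyloid fibrils (probe set 10770048). The log2 signal was 11.30 in HP-HS-HF, 11.44 in HP-HS and 11.44 in HP, against 11.51 in NP-HS-HF, 11.61 in NP-HS and 11.70 in NP. Each high protein array was below each normal protein array, with a gap of 0.07 between the nearest of them. The fitted difference was -0.21 ± 0.065 SE (95 percent interval -0.37 to -0.06, limma adjusted p = 0.427). It was -0.22 with high sucrose and high fat, -0.17 with high sucrose and -0.26 on low fat. At both protein levels Apcs was lowest with high sucrose and high fat.

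Crp, the related pentraxin C-reactive protein (probe set 10765801), had a signal of 12.44, 12.46 and 12.45 in HP-HS-HF, HP-HS and HP, against 12.46, 12.50 and 12.47 in NP-HS-HF, NP-HS and NP. The span over the 6 arrays was 0.05 log2, and only 0.587 percent of the probe sets tested had a span as small or smaller. The fitted protein difference was -0.02 with a 95 percent interval of -0.17 to 0.13. Unlike those of Apcs, the Crp arrays of the protein levels overlapped. The interval of Crp held 0, so the sign of its difference is not determined.

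Hp, haptoglobin, which binds free haemoglobin (probe set 10810923), had 13.16, 13.13 and 13.12 in HP-HS-HF, HP-HS and HP, against 13.13, 13.13 and 13.09 in NP-HS-HF, NP-HS and NP. Fgb, the fibrinogen beta chain of the blood clot (probe set 10823955), had 12.78, 12.71 and 12.73 in the same high protein order, against 12.76, 12.76 and 12.71 in NP-HS-HF, NP-HS and NP. Both spanned 0.07 log2 over the 6 arrays, and their groups overlapped. The 95 percent interval of the protein difference was -0.13 to 0.17 for Hp and -0.16 to 0.15 for Fgb. The signals of Crp, Hp and Fgb were within the upper 1 percent of the 29214 probe sets. Array signals near the top of the scale can be compressed, and whether they were here was not tested.

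The region upstream of the gene is shown for a member whose high protein arrays were all above its normal protein arrays (Orm1), for the member whose high protein arrays were all below (Apcs) and for a member with a small span (Fgb). Sequences are from RefSeq on the rat build GRCr8, each the 250 bases before the tabulated start, 5′ to 3′ on the gene's strand. Orm1 is at chr5:81788259-81788508 on the plus strand, Apcs at chr13:87906509-87906758 on the minus strand and Fgb at chr2:170700876-170701125 on the minus strand. Capitals mark matches, on either strand, to 4 motifs: the STAT site TTCNNNGAA, the interleukin-6 response element core CTGGGAA, the C/EBP site TTNNGNAA and the glucocorticoid response element core ACANNNTGT.
Orm1: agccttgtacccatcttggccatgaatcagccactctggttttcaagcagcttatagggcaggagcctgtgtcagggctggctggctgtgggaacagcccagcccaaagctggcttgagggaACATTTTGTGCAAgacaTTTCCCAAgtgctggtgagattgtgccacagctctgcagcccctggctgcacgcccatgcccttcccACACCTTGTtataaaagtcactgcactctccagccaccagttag
Apcs: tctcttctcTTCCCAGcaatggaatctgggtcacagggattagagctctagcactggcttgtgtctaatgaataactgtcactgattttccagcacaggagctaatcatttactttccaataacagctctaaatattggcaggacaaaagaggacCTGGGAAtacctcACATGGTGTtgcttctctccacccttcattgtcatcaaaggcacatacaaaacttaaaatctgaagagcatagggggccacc
Fgb: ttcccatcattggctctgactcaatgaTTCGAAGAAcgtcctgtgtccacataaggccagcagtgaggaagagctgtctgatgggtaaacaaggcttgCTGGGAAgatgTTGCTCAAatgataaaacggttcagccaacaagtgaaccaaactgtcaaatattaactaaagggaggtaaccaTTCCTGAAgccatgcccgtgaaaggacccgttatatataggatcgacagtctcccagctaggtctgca

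Of 33465 upstream windows of this length, 7.67 percent held the STAT motif, 9.56 percent the interleukin-6 core, 37.2 percent the C/EBP motif and 5.81 percent the glucocorticoid core, so each match is a description and not a site of binding. Orm1 held the glucocorticoid core at 128 to 120 bases before its start, and a C/EBP match at 123 to 116 overlapped it. A second C/EBP match lay at 111 to 104 and a second glucocorticoid core at 44 to 36. Apcs held the interleukin-6 core at 241 to 235 and at 95 to 89 and the glucocorticoid core at 82 to 74. Fgb held the STAT motif at 223 to 215, the interleukin-6 core at 152 to 146, and C/EBP matches at 141 to 134 and 68 to 61. Windows were available for 7 of the 10 genes, without A2m, Hp and Lbp. The window of Crp, the member with the smallest span, is not shown and held only C/EBP matches, at 250 to 243 and 47 to 40. That of Lcn2, also not shown, held the interleukin-6 core, a C/EBP match and the glucocorticoid core, and that of Stat3 held no match. Of the 250 bases, 71 of the Lcn2 window and 154 of the Stat3 window lie inside the annotated gene. The tabulated Socs3 window lies wholly inside the annotated gene and is not shown.

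A2m encodes alpha-2-macroglobulin, a trap for proteases in plasma (probe set 10858408). It varied most of the 10 genes. The log2 signal was 6.91 in HP-HS-HF, 7.01 in HP-HS and 7.78 in HP, against 7.78 in NP-HS-HF, 7.98 in NP-HS and 7.29 in NP. The highest array, NP-HS, was 2.11-fold above the lowest, HP-HS-HF, and 99.0 percent of the probe sets tested had a span as small or smaller. The arrays of the protein levels overlapped, because the order turned between backgrounds. High protein was lower by 0.87 log2 (1.83-fold) with high sucrose and high fat and lower by 0.98 (1.97-fold) with high sucrose, whereas on low fat it was higher by 0.49 (1.41-fold).

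The additive fit described A2m poorly, with a residual SD of 0.58 that exceeded that of 99.8 percent of the probe sets tested. Its protein difference was -0.45 ± 0.272 SE (adjusted p = 0.736). Read along the backgrounds, high sucrose differed from low fat by -0.78 at high protein and by 0.69 at normal protein. High sucrose with high fat differed from low fat by -0.88 at high protein and by 0.49 at normal protein. Whether the differences depend on the other factor was not tested, because an interaction leaves no residual degrees of freedom.

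**Figure D2:**
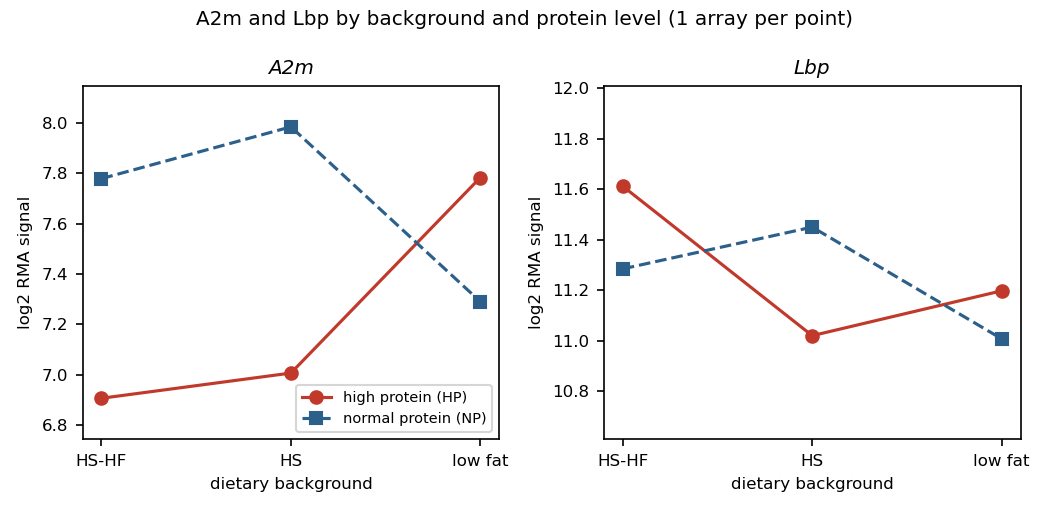
Log2 RMA signal (vertical axis) of A2m and Lbp in the 3 dietary backgrounds (horizontal axis), with high protein arrays as red circles and normal protein arrays as blue squares, 1 array per point. In A2m the high protein line lies below the normal protein line with high sucrose, with or without fat, and above it on low fat. In Lbp the high protein line is above with sucrose and fat and on low fat, and below with high sucrose.

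Lbp encodes the lipopolysaccharide binding protein, which hands bacterial endotoxin to CD14 (probe set 10841693). Its log2 signal was 11.61 in HP-HS-HF, 11.02 in HP-HS and 11.20 in HP, against 11.28 in NP-HS-HF, 11.45 in NP-HS and 11.01 in NP. The highest array was HP-HS-HF and the lowest NP, at a 1.52-fold distance. High and normal protein differed by 0.33 with high sucrose and high fat, by -0.43 with high sucrose and by 0.19 on low fat, and the fitted difference was 0.03 ± 0.145 SE. Fat added to high sucrose went with a difference of 0.59 at high protein (1.51-fold) and of -0.17 at normal protein. High sucrose with high fat was above low fat at both protein levels, by 0.41 at high and 0.28 at normal protein (fitted 0.35 ± 0.178 SE, adjusted p = 0.976).

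Lcn2 encodes lipocalin 2, which binds bacterial iron carriers and is made by hepatocytes in inflammation and by neutrophils (probe set 10844331). Its log2 signal was 6.92 in HP-HS-HF, 6.62 in HP-HS and 7.06 in HP, against 6.64 in NP-HS-HF, 6.74 in NP-HS and 6.91 in NP. The groups of the protein levels overlapped. With high sucrose Lcn2 was below low fat by 0.44 at high and by 0.17 at normal protein. The fitted sucrose difference was -0.31 ± 0.112 SE (limma adjusted p = 1). Of 13 measured neutrophil markers, 8 lay below the filter, among them S100a8 and S100a9. The summed signal of the 5 others was 8.10 to 8.14 log2 at high protein and 8.09 to 8.15 at normal protein. Among these, Mpo, Csf3r and Elane had mean levels of 5.52, 5.92 and 5.94 log2, not far above the filter at 5.14.

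Downstream of the receptor, Stat3 had a signal of 10.81, 10.81 and 10.71 in HP-HS-HF, HP-HS and HP, against 10.84, 10.86 and 10.66 in NP-HS-HF, NP-HS and NP (probe set 10747506). The protein difference was -0.01 with an interval of -0.17 to 0.15. At each protein level the low fat array was the lowest of the 3, and high sucrose was above low fat by 0.10 at high and by 0.20 at normal protein (fitted 0.15 ± 0.080 SE, adjusted p = 1). The activity of STAT3 lies in its phosphorylation, which an array does not measure.

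Socs3, the feedback inhibitor (probe set 10749372), had a log2 signal of 7.85 in HP-HS-HF, 7.79 in HP-HS and 7.81 in HP, against 7.60 in NP-HS-HF, 7.41 in NP-HS and 7.43 in NP. All high protein arrays were above all normal protein arrays by at least 0.19, and they lay within a narrow band, with a mean of 7.82 ± 0.031 at high protein and 7.48 ± 0.106 at normal protein (SD over 3 backgrounds). The fitted difference was 0.33 ± 0.068 SE (1.26-fold, interval 0.17 to 0.50, limma adjusted p = 0.229). It was 0.25 with high sucrose and high fat, 0.38 with high sucrose and 0.38 on low fat. By rank of p among the 20450 probe sets, Orm1 was number 193 and Socs3 number 200.

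**Figure D3:**
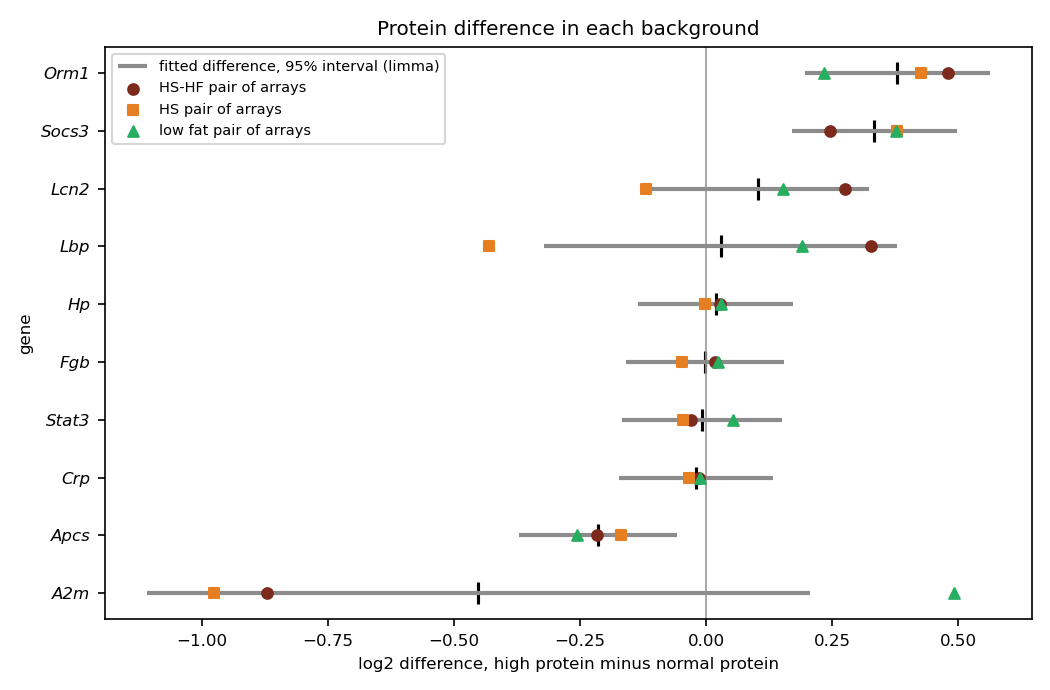
Log2 difference of high minus normal protein (horizontal axis) for each gene (vertical axis). Symbols are the 3 pairs of arrays by background, black ticks the fitted mean and grey bars its 95 percent interval from limma. Orm1 and Socs3 lie right of 0 and Apcs left of 0 with all 3 symbols, and A2m spreads from -0.98 to 0.49.

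Macrophages make cytokines and also express Socs3. All 13 measured macrophage markers had a fitted difference above 0, with a median of 0.21 against -0.00 over all probe sets, and 0 of them passed the test. In 7 of the 13 each HP array was above each NP array, beside 7.35 percent of all probe sets. Their summed signal was 12.21 to 12.38 log2 at high protein and 12.05 to 12.16 at normal protein, ranges that do not overlap. By array it was 12.21 in HP-HS-HF, 12.38 in HP-HS and 12.30 in HP, against 12.05 in NP-HS-HF, 12.16 in NP-HS and 12.08 in NP. At each protein level this sum was lowest on the array with high sucrose and high fat. Socs3 was highest on these arrays. Both orders are of single pools, and neither was tested. The scavenger protein gene Cd5l was at 0.35 ± 0.082 SE, the complement gene C1qa at 0.29 ± 0.101 SE and the Kupffer cell lectin Clec4f at 0.15 ± 0.078 SE. The summed signal of 21 glucocorticoid response genes was 16.03 to 16.09 log2 at high protein and 15.81 to 15.94 at normal protein. Of the 21, 14 were higher and 7 lower, and 8 had an unadjusted limma p under 0.05, beside 8.71 percent of all probe sets. The median deviation of the list from the mean of the arrays overlapped (-0.073 to 0.086 at high protein, -0.075 to -0.0058 at normal protein). All 6 bile duct markers (median 0.13) and all 5 endothelial markers (median 0.05) were above 0 as well, with 0 past the test. The summed signal of the bile duct markers was 8.61 to 8.75 at high protein and 8.46 to 8.58 at normal protein, and that of the endothelial markers overlapped, at 11.33 to 11.37 at high protein and 11.26 to 11.34 at normal protein. Of 7 lymphocyte markers 4 were higher and 3 lower. Their sums barely separated (9.778 to 9.865 at high protein, 9.617 to 9.773 at normal protein), and their median deviations overlapped. The part of these genes and cells in the differences of Orm1, Socs3 and Apcs was not tested.

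Within a background, each difference rests on 2 arrays and has no test. A distance of 1.5-fold or more between the protein levels was seen in 1 of the 10 genes with high sucrose and high fat, in 1 with high sucrose and in 0 on low fat, against 1.5, 1.39 and 1.38 percent of all probe sets. The gene was A2m in both cases. High sucrose with high fat differed from low fat by this much in 1 gene at high protein (A2m) and 0 at normal protein, against 1.19 and 1.16 percent. For high sucrose against low fat it was 1 gene at each protein level, again A2m, against 0.89 and 0.866 percent. For fat added to high sucrose it was 1 gene at high protein (Lbp) and 0 at normal protein, against 1.27 and 0.934 percent.

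The sucrose, the fat, and the sucrose and fat effects had 0 of the 10 genes past the limma test, and 0 percent of all probe sets. At an unadjusted p under 0.05 there were 1, 0 and 0 genes, the one being Lcn2, beside 3.02, 4.95 and 5.18 percent of all probe sets. These effects share arrays and are not independent. After Lbp, the largest fitted differences of sucrose and fat against low fat were those of Lcn2 (-0.21 ± 0.112 SE), A2m (-0.19 ± 0.334 SE), Apcs (-0.16 ± 0.079 SE) and Stat3 (0.14 ± 0.080 SE). Orm1 was higher with sucrose and fat than on low fat by 0.23 at high protein and lower by 0.01 at normal protein. Socs3 was higher by 0.04 at high and by 0.17 at normal protein.

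Other genes of the pathway were grouped into lists by their known roles. Of 37 further positive acute phase genes above the filter, 0 passed the test for protein, 19 were higher and 18 lower, with a median of 0.00. The fibrinogen chains beside Fgb were at 0.03 ± 0.070 SE (Fga) and -0.04 ± 0.066 SE (Fgg). The largest differences were those of Hamp, which encodes the iron hormone hepcidin (-0.92 ± 0.529 SE), the nicotinamide methyltransferase Nnmt (0.53 ± 0.072 SE, adjusted p = 0.11) and the metallothionein Mt1 (0.48 ± 0.119 SE). Hamp had 9.20, 6.94 and 9.21 log2 in HP-HS-HF, HP-HS and HP, against 9.34, 9.72 and 9.03 in NP-HS-HF, NP-HS and NP, with the HP-HS array far below the other 5. Nnmt had 10.42, 10.63 and 10.51 in HP-HS-HF, HP-HS and HP, against 9.89, 10.00 and 10.09 in NP-HS-HF, NP-HS and NP, and these groups did not overlap.

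Of 18 negative acute phase genes, 6 were higher and 12 lower with high protein, 0 past the test, with a median of -0.02. Their summed signal was 17.066 to 17.090 log2 at high protein and 17.091 to 17.107 at normal protein, next to each other without overlap. The lipid carrier genes Apoa4 (-0.23 ± 0.103 SE) and Apoa2 (0.18 ± 0.065 SE) had the largest differences, and albumin, Alb, was at -0.02 ± 0.065 SE.

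Of 19 cytokine and receptor genes above the filter, 8 were higher and 11 lower with high protein and 0 passed. Il6, the gene of interleukin-6, lay below the filter. The tumour necrosis factor receptor Tnfrsf1b was at 0.26 ± 0.098 SE, the interleukin-1 alpha gene Il1a at -0.19 ± 0.124 SE and Tnf at 0.16 ± 0.068 SE. Of 21 signal transducers and transcription factors 0 passed, with a median of 0.00, and the stress factor Atf3 was at 0.33 ± 0.158 SE. Of 21 inhibitors 0 passed, 11 were higher and 10 lower, and the largest difference was that of Nfkbia, the NF-kappaB inhibitor, at -0.26 ± 0.071 SE (adjusted p = 0.389). Socs2, a growth hormone feedback gene of the family of Socs3, was at -0.25 ± 0.389 SE, with 9.52, 8.33 and 9.12 log2 in HP-HS-HF, HP-HS and HP, against 8.54, 9.72 and 9.46 in NP-HS-HF, NP-HS and NP.

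Response genes of STAT3 and interleukin-6 went both ways with high protein, 14 higher and 15 lower of 29, with a median of -0.00 and 0 past the test. Of the 29, 6 had an unadjusted limma p under 0.05, beside 8.71 percent of all probe sets. The kinase gene Pim1 had 7.65, 7.56 and 7.33 log2 in HP-HS-HF, HP-HS and HP, against 8.11, 7.90 and 7.61 in NP-HS-HF, NP-HS and NP. Its fitted difference was -0.36 ± 0.070 SE (limma adjusted p = 0.208), and Pim1 was added here after its values were seen. The 3 largest differences of the list were those of Hamp (-0.92 ± 0.529 SE), Nnmt (0.53 ± 0.072 SE) and Fos. The immediate early gene Fos had 7.18, 7.05 and 7.36 in HP-HS-HF, HP-HS and HP, against 6.87, 6.49 and 6.83 in NP-HS-HF, NP-HS and NP, with a fitted difference of 0.47 ± 0.077 SE (adjusted p = 0.149). Of 21 glucocorticoid response genes, 14 were higher and 7 lower with high protein, with a median of 0.05 and 0 past the test. Of these, 8 had an unadjusted limma p under 0.05, beside 8.71 percent of all probe sets. In 5 each HP array was above each NP array and in 1 below, beside 7.35 and 7.58 percent of all probe sets. The serine dehydratase Sds was at 0.50 ± 0.090 SE, Mt1 at 0.48 ± 0.119 SE and the gluconeogenic enzyme Pck1 at 0.36 ± 0.066 SE.

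**Figure D4:**
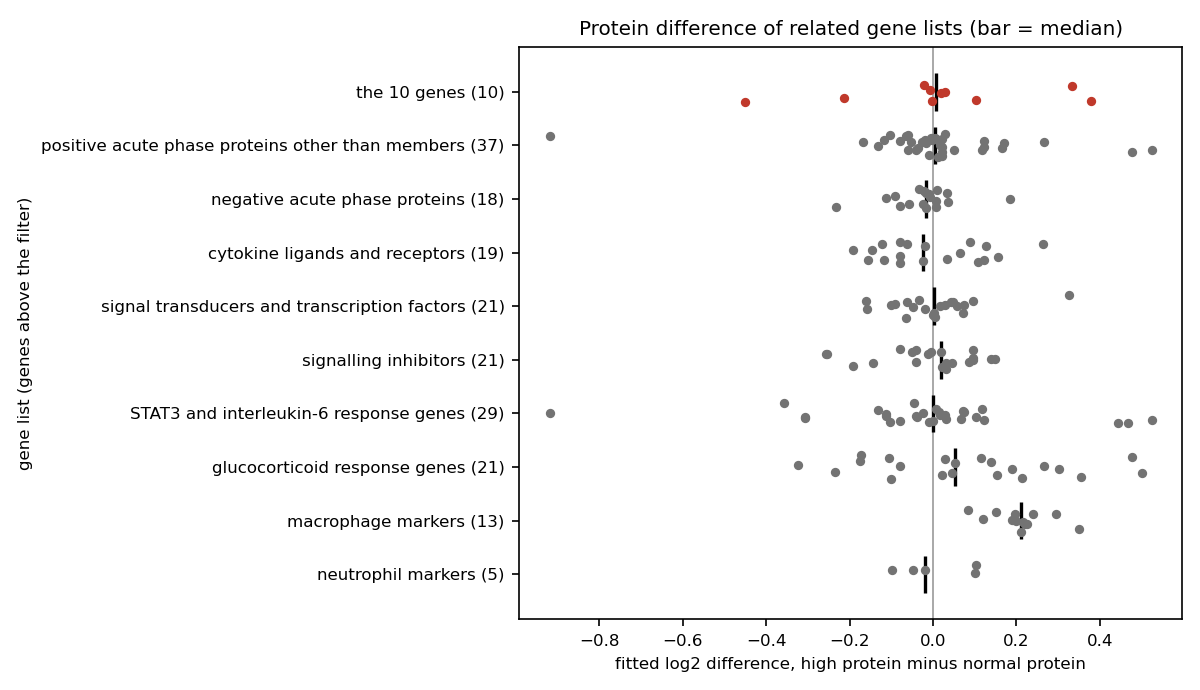
Fitted log2 difference of high minus normal protein (horizontal axis) for the genes of each list above the filter (rows, number of genes in brackets), with 1 point per gene and a black bar at the median. The 10 genes and the acute phase, cytokine and signalling lists centre near 0, and all 13 macrophage markers lie right of 0. Bile duct and endothelial markers, also all above 0, are not drawn.

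For sucrose and fat against low fat, 0 genes of these lists passed the test. Of the 37 positive acute phase genes 27 were higher and 10 lower, with a median of 0.04. Of the 29 STAT3 and interleukin-6 response genes 21 were higher and 8 lower, with a median of 0.08. Over all probe sets tested the median lay at -0.00, and 48.8 percent were higher. Both lists hold Fga, Fgg, Fgl1, Hamp, Il1rn, Lrg1, Nnmt and Timp1, so their counts are not independent. Gadd45g, a growth arrest gene, was at -0.79 ± 0.168 SE, Pim1 at 0.41 ± 0.086 SE, Il1a at 0.43 ± 0.152 SE and the interleukin-1 receptor Il1r1 at 0.35 ± 0.091 SE. The growth hormone feedback gene Cish was at -0.73 ± 0.445 SE, a value carried by the normal protein arrays: it had 8.64 log2 in HP-HS-HF against 8.73 in HP, and 7.34 in NP-HS-HF against 8.71 in NP.

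A2m and Lbp were the members that spanned 1.5-fold or more over the 6 arrays, which 6.47 percent of the probe sets tested did. The pattern of A2m was most like those of Plp2 (Pearson r = 0.95), S1pr1 (r = 0.90) and Prim1 (r = 0.90). That of Lbp was most like those of Cyp2c12 (r = 0.94), Nab2 (r = 0.93) and Scgb1c1 (r = 0.93). These were the highest of 479 named genes with a span of 1.5-fold or more, each over 6 arrays that share their pools, and they describe the arrays only.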

How the data were processed

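The table holds 1 column for each of 6 arrays of pooled liver RNA (1500 ng per rat, 5 rats per pool, 100 ng labelled). Per the submitters' processing notes, the authors summarised probe sets by RMA (robust multi-array average). The deposited values run between 2.40 and 13.92 and were taken as log2 signal. No version or setting of RMA is named there. The source labels speak of mice, but organism field and protocol speak of rats. The platform annotation listed 15633 probe sets, of which 15310 have 1 symbol. Of several probe sets of a symbol, the brightest was kept. Tests covered probe sets whose mean exceeded the 30th percentile, log2 5.14.

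Protein and background were fitted as additive terms (limma 3.58.1, R 4.3.3), with 2 residual and 4.37 prior degrees of freedom. The fit was tested on simulated data. The members and the 16 lists were chosen with earlier results of these data known, and lists are described by counts and medians. The genes to be named from pathway lists were those past the test and the 3 largest differences per effect, and from cell type lists the 2 of highest level and the 2 of largest protein difference. Fga, Fgg and the protein values of Pim1 were added after their values were seen. For likeness, the 3 genes with the highest Pearson r were taken. Other filters, normalizations, variance priors, probe set averages and fits without single arrays served as alternatives.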

Additional observations from a re-analysis of the deposited data

Results flagged for a closer look

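A2m and Lbp moved by 1.2-fold or more in opposite directions under the same contrast. For high against normal protein, A2m differed by -0.87 with high sucrose and high fat, by -0.98 with high sucrose and by 0.49 on low fat. Lbp differed by 0.33 with high sucrose and high fat and by -0.43 with high sucrose. For high sucrose against low fat, A2m differed by -0.78 at high protein and by 0.69 at normal protein. For high sucrose with high fat against low fat, A2m differed by -0.88 at high protein and by 0.49 at normal protein. Each value is the log2 difference of 2 arrays. The dependence on the other factor was not tested, and the contrasts of A2m share arrays.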

How the results depend on the processing

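Under all alternatives tried, 0 of the 10 genes passed the test for any of the 4 effects. The count of all probe sets past the test for protein was 9, and it was 3 with no filter on low values, 16 with each array's median subtracted, 51 with an intensity trend in the prior and 0 with an ordinary t statistic, which has 2 residual degrees of freedom. Leaving out arrays gave 0 to 48 for protein (48 without the HP-HS-HF or the NP-HS-HF array or both, 0 without any of the other 4), 0 to 3 for sucrose (3 without HP-HS-HF or NP-HS-HF), 0 to 17 for fat (17 without NP-HS-HF) and 0 to 12 for sucrose and fat (12 without NP-HS-HF). With the 4 arrays of the contrast alone, 3 probe sets passed for sucrose. For protein, leaving out 1 array of a background equals leaving out both, since the background term takes up the array left. Leaving out arrays thus gave 3 distinct protein fits, 1 per background. For sucrose, the fit without HP-HS-HF or NP-HS-HF is likewise that on the 4 arrays of the contrast. Why the counts differed between distinct fits was not tested. Genes with all HP arrays above all NP arrays numbered 2, and 2 to 3 when arrays were left out. Genes with all HP arrays below all NP arrays numbered 1, and 1 to 3 when arrays were left out. Leaving out arrays leaves fewer of them to overlap, and the share of all probe sets was not computed for these smaller sets. The protein difference of Orm1 lay between 0.33 and 0.45, that of Socs3 between 0.31 and 0.38 and that of Apcs between -0.24 and -0.19 over all alternatives. Only the normalizations and the leaving out of arrays could change these values. Filters, variance priors and the ordinary t statistic leave the fitted difference as it is. Averaging probe sets does so too, since each member has 1 probe set. Signs turned for small or uneven differences. Fgb was at 0.013 for protein with quantile normalization. Leaving out arrays gave ranges that span 0 for protein in Lbp (-0.12 to 0.26), Stat3 (-0.038 to 0.011) and Fgb (-0.015 to 0.021), for sucrose in A2m (-0.75 to 0.67), Lbp (-0.21 to 0.48), Orm1 (-0.070 to 0.15), Fgb (-0.023 to 0.046) and Socs3 (-0.050 to 0.016), for fat in A2m (-0.55 to 0.24), Lbp (-0.13 to 0.56), Lcn2 (-0.065 to 0.27), Orm1 (-0.0032 to 0.15) and Stat3 (-0.036 to 0.022), and for sucrose and fat in A2m (-0.90 to 0.51). Differences of 2 arrays of 1.5-fold or more did not change sign. The fit pairs the arrays of both protein levels by background, and no unpaired fit was run. Precision is limited by 1 pool per diet.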

Other observations

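Of 21 glucocorticoid response genes, 7 were higher and 14 lower with sucrose and fat than on low fat. By limma 0 passed the test, and 8 had an unadjusted p under 0.05, beside 5.18 percent of all probe sets. The 3 with the largest fitted differences were all higher, unlike most of the list. Pdk4, the kinase that holds back pyruvate oxidation, was at 11.29 log2 in HP-HS-HF and 9.69 in HP, and at 10.27 in NP-HS-HF and 10.00 in NP (fitted 0.94 ± 0.299 SE). Angptl4, an inhibitor of lipoprotein lipase, was at 9.80 in HP-HS-HF and 8.76 in HP, and at 9.48 in NP-HS-HF and 9.01 in NP (fitted 0.75 ± 0.168 SE). Igfbp1, which binds insulin-like growth factors, was at 10.91 in HP-HS-HF and 10.43 in HP, and at 10.83 in NP-HS-HF and 10.11 in NP (fitted 0.60 ± 0.095 SE, adjusted p = 0.76).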
